A study of Mus musculus with 8 samples.

Results

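Pancreatic genes were followed in RNA from mouse intestine. They comprise 36 genes in 4 roles: 23 secreted digestive enzymes, 7 accessory proteins of the zymogen granule and the enzyme-making cell, 3 acinar transcription regulators and 3 islet hormones. They were chosen by their measured counts: the rule set the 2 libraries labelled NC 2 and ExDSS 1 against the other 6, so the height of these genes in those libraries is how they came to be listed and is given below as a description, with no test. By gene name, 35 of the 36 were matched among the 23282 lines of the deposited count table. The 36th, Spink3, stands in the table only as an alias of the line Spink1 and is described separately.

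Wild-type C57BL/6 mice made up 4 groups, with 2 libraries in each. NC received buffer by gavage and plain water. PC received buffer and then 3% dextran sodium sulfate (DSS), a polysaccharide used to induce colitis, in drinking water for 6 days. Ex received 1 mg of bovine colostrum exosomes, vesicles from early milk, by daily gavage over 3 weeks, and no DSS. ExDSS received the same exosomes and then the same DSS. The sources used here do not give the part of the intestine, and no label ties the libraries of a group to different animals. A p-value therefore measures the spread between libraries only, and this may be technical.

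Pancreatic acinar cells make nearly all the digestive enzymes that reach the gut lumen, most of them as inactive zymogens packed in granules and released on a meal. Their enzyme genes are driven by the PTF1 complex, in which the basic helix-loop-helix factor PTF1A binds an E-box and RBPJL binds a neighbouring TC-box, and BHLHA15 (MIST1) organises the secretory machinery. Islet beta cells, scattered among the acini, make insulin and co-secrete amylin. Gut epithelium makes few of these proteins, and in bulk tissue the number of cells of a type and the RNA per cell cannot be told apart.

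Total counts ranged from 8813622 to 12308537 in 7 libraries and reached only 1163147 in Ex 2. The ribosomal line Rn45s took 53.5% of the counts of Ex 2 and 0.407% to 13.1% of those of the others. Ex 2 also had almost no counts of gut epithelial genes: the cell-surface protein gene Epcam was at 3.44 CPM (counts per 1000000 counts of the library) against 427 to 936 in the other 7 libraries. The calprotectin gene S100a8, a neutrophil gene that rises in colitis, went against the DSS labels in NC and PC but not in Ex and ExDSS. It stood at 1090 and 674 CPM in the libraries labelled NC and at 0.394 and 0.768 CPM in those labelled PC, with 1.25 CPM and no count in Ex and 883 and 617 CPM in ExDSS. Group names below are the labels as given. Both libraries high in pancreatic genes thus had high S100a8, and so did NC 1 and ExDSS 2, which were low in pancreatic genes.

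Sequence around the gene starts was read for the members that have an entry in the RefSeq promoter set of build GRCm38.p6, which holds 250 bases before to 50 bases after each start; 29 of the 36 have one. The E-box core CACCTG and the TC-box core TTTCCC, the 2 parts of a PTF1 site, were searched on both strands; CACCTG is itself one of the CANNTG E-boxes. The starts below are shown because Cela1 and Cela2a hold both words, Ctrb1 holds 1 of them, and Ins1, an islet gene, holds neither. Capitals mark CACCTG or TTTCCC as read on either strand (CAGGTG or GGGAAA where the word lies on the other strand), and each sequence runs 5′ to 3′ on the strand of its gene. Cela1 lies at chr15:100687871-100688170 (minus strand), Cela2a at chr4:141825956-141826255 (minus), Ctrb1 at chr8:111690961-111691260 (minus) and Ins1 at chr19:52264047-52264346 (plus).
Cela1: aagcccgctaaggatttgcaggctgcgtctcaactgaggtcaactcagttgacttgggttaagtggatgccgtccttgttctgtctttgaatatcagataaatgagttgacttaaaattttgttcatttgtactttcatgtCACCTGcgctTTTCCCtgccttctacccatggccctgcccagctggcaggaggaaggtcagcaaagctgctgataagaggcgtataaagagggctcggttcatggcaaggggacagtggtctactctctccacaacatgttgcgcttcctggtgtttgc
Cela2a: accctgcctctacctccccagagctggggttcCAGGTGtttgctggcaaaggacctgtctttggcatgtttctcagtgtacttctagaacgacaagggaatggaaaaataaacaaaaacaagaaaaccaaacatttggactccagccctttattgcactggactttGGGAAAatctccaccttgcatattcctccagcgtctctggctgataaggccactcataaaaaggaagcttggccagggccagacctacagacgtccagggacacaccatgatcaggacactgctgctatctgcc
Ctrb1: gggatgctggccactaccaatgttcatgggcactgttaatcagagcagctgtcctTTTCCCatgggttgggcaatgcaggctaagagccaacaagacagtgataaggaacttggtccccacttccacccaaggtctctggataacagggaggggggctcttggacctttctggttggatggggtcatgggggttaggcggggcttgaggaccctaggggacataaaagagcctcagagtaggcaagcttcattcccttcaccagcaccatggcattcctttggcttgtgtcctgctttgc
Ins1: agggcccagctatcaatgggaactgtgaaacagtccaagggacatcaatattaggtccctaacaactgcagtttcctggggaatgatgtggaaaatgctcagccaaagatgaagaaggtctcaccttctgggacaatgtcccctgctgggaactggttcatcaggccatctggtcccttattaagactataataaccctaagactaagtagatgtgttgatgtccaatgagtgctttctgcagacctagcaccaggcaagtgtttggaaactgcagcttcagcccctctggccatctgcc

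In Cela1 the E-box word begins 109 bases before the start and the TC-box word 99 bases before it, so the 2 words lie close together. In Cela2a they begin 218 and 84 bases before the start, and in Ctrb1 the TC-box word begins 195 bases before it. CACCTG was found in 17 of the 29 members' windows (58.6%) and in 20.2% of all 32851 windows of the set. The looser CANNTG was in 24 of 29 (82.8%) against 72.3% of all windows. TTTCCC was in 10 of 29 (34.5%) against 25.2%, and all 10 were windows of enzyme genes. Enzymes hold 20 of the 29 windows, against 4 of accessory genes, 3 of regulators and 2 of hormones, too few to compare the roles. Both CACCTG and TTTCCC stood in 7 windows (24.1%) against 4.86% of all windows, and these 7 were also all of enzymes. A match is a run of letters in the window and was not tested as a binding site.

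The secreted enzymes took 9.10% of all counts in NC 2 (exact 95% binomial interval 9.09% to 9.12%) and 20.5% in ExDSS 1 (20.5% to 20.6%). In the other 6 libraries they took between 0.00688% (Ex 2) and 0.0552% (ExDSS 2). These intervals cover counting error only. Thus 1 library of NC and 1 of ExDSS were high, and the other library of each group was as low as those of PC and Ex. Of the 23 enzymes, 21 were higher in both NC 2 and ExDSS 1 than in every one of the other 6 libraries, as were 4.23% of all lines with a count. For 18 enzymes the lower of NC 2 and ExDSS 1 exceeded 10 CPM while none of the other 6 reached it, against 0.675% of all lines with a count. These counts follow from how the genes were chosen, and nothing is read from them. The heat map of CPM by library shows the same 2 bright columns for almost every enzyme.

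**Figure D1:**
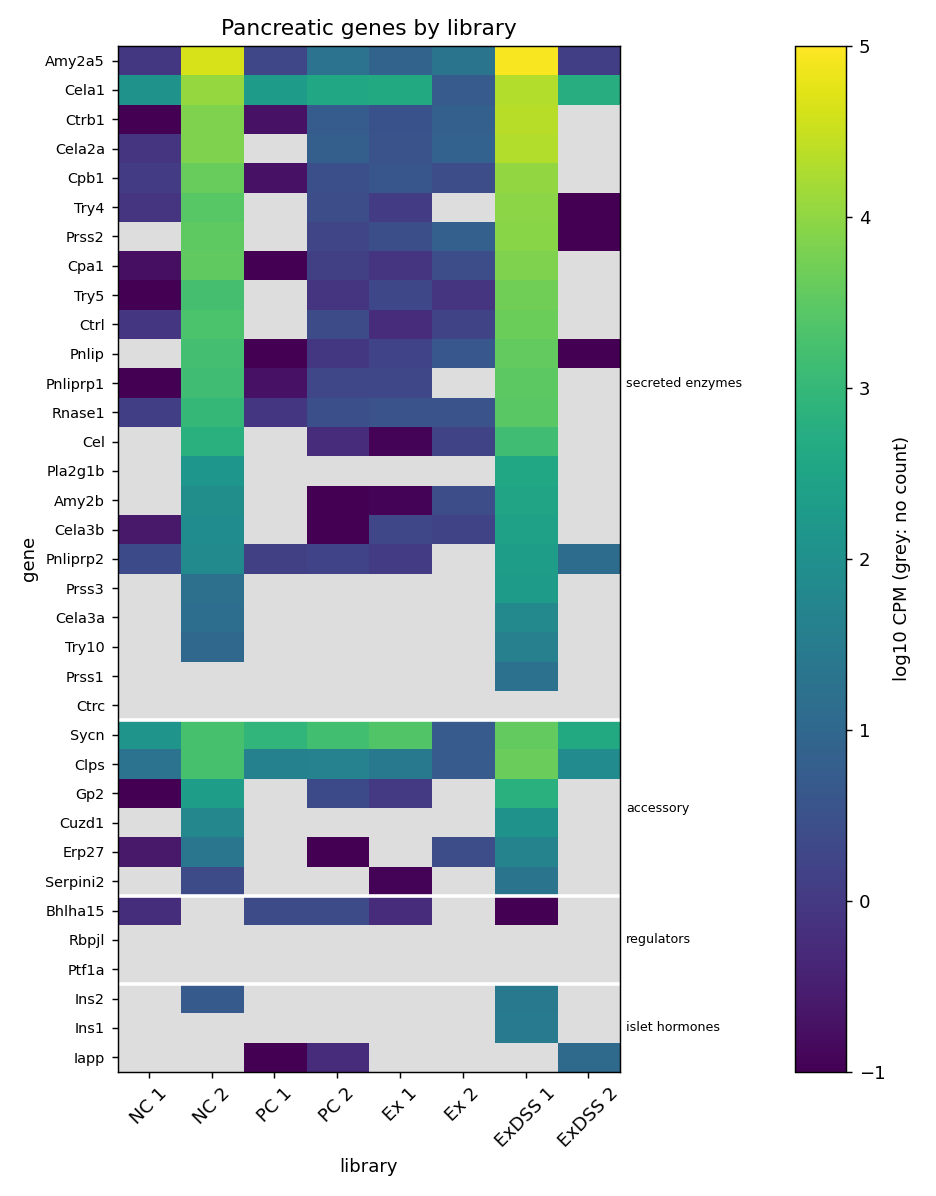
Each row is one of the 35 members matched by gene name and each column one library. Colour gives log10 CPM, grey marks no count, and white lines separate secreted enzymes, accessory proteins, regulators and islet hormones. NC 2 and ExDSS 1 are bright for most enzymes, Cela1 and Sycn have colour in all 8 columns, and Rbpjl, Ptf1a and Ctrc are grey throughout.

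Amy2a5, a pancreatic alpha-amylase that cleaves starch, had the most counts of any member. It was at 43719 CPM in NC 2 and 85595 in ExDSS 1, and at 0.96 CPM in NC 1, 1.87 in PC 1, 19.4 in PC 2, 8.28 in Ex 1, 20.6 in Ex 2 and 1.29 in ExDSS 2. Its mean was 21860 ± 30913 CPM in NC and 42798 ± 60524 CPM in ExDSS (SD, n = 2), and 10.6 ± 12.4 CPM in PC and 14.5 ± 8.73 CPM in Ex. The SD was larger than the mean in NC, PC and ExDSS. Its line lies on chromosome 3 at 113249178 to 113356520 (minus strand; coordinates of the table, which match GRCm38).

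Among the proteases, the elastase gene Cela1 was at 11381 CPM in NC 2 and 20496 in ExDSS 1. Unlike the other elastases it was also plainly present elsewhere, at 114 CPM in NC 1, 202 in PC 1, 367 in PC 2, 451 in Ex 1, 5.16 in Ex 2 and 537 in ExDSS 2. Cela1 made up 87.7% to 97.6% of the enzyme counts in NC 1, PC 1, PC 2, Ex 1 and ExDSS 2, but 12.5% in NC 2, 9.98% in ExDSS 1 and 7.5% in Ex 2. Its lowest level was in Ex 2, the library with almost no Epcam. A second elastase, Cela2a, was at 6871 CPM in NC 2, 19824 in ExDSS 1, 0.789 in NC 1, 6.53 in PC 2, 3.40 in Ex 1 and 7.74 in Ex 2, with no count in PC 1 and ExDSS 2. Cela2a therefore lacked the broad low level of Cela1.

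Ctrb1 encodes chymotrypsinogen B. Its CPM was 6835 in NC 2, 22169 in ExDSS 1, 0.0877 in NC 1, 0.197 in PC 1, 5.47 in PC 2, 3.18 in Ex 1 and 6.88 in Ex 2, with no count in ExDSS 2. Ctrl, a chymotrypsin-like protease, was at 1985 CPM in NC 2, 4478 in ExDSS 1, 0.877 in NC 1, 2.40 in PC 2, 0.567 in Ex 1 and 1.72 in Ex 2, and had no count in PC 1 and ExDSS 2. In each of these genes every library but NC 2 and ExDSS 1 was under 10 CPM. Ctrc, the gene of chymotrypsin C, had no count in any library, which allows 3 counts, or 0.244 to 0.340 CPM in 7 libraries and 2.58 CPM in Ex 2.

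The carboxypeptidases trim amino acids from peptide ends, CPA1 taking aromatic and aliphatic residues and CPB1 basic ones. Cpb1 was at 4099 CPM in NC 2, 10493 in ExDSS 1, 1.14 in NC 1, 0.197 in PC 1, 2.88 in PC 2, 3.97 in Ex 1 and 2.58 in Ex 2, with no count in ExDSS 2. Cpa1 was at 3357 CPM in NC 2, 6936 in ExDSS 1, 0.175 in NC 1, 0.0984 in PC 1, 1.34 in PC 2, 0.794 in Ex 1 and 2.58 in Ex 2, again with no count in ExDSS 2. Neither gene reached 5 CPM outside NC 2 and ExDSS 1.

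The trypsinogens, precursors of the protease that activates the other zymogens, followed the same pattern. Prss2 had 3328 CPM in NC 2, 8520 in ExDSS 1, 1.82 in PC 2, 2.72 in Ex 1, 6.88 in Ex 2, 0.0925 in ExDSS 2 and no count in NC 1 and PC 1. Try4 had 2691 CPM in NC 2, 9213 in ExDSS 1, 0.789 in NC 1, 2.59 in PC 2, 1.13 in Ex 1, 0.0925 in ExDSS 2 and no count in PC 1 and Ex 2. Try5 had 1677 CPM in NC 2, 5012 in ExDSS 1, 0.0877 in NC 1, 0.864 in PC 2, 2.04 in Ex 1, 0.860 in Ex 2 and no count in PC 1 and ExDSS 2. The rarer trypsinogens Prss3, Try10 and Prss1 had no count in the other 6 libraries. Prss3 was at 16.8 CPM in NC 2 and 209 in ExDSS 1 and Try10 at 10.5 and 41.2 CPM, while all 168 counts of Prss1 (17.4 CPM) were in ExDSS 1.

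The enzymes that digest fat and nucleic acids had the same 2 high libraries. Pancreatic lipase, Pnlip, was at 1604 CPM in NC 2 and 3610 in ExDSS 1, with 0 to 4.30 CPM in the other 6. Its relative Pnliprp1, and Cel, the gene of a bile salt-stimulated lipase, were at 1432 and 634 CPM in NC 2 and 3131 and 1417 in ExDSS 1. Elsewhere they were at most at 1.93 and 1.72 CPM. Pancreatic ribonuclease, Rnase1, was at 982 and 2874 CPM in these libraries and at 0 to 3.44 in the other 6. The amylase gene Amy2b was at 94.2 and 323 CPM and the elastase gene Cela3b at 83.0 and 275 CPM, with at most 2.58 and 1.93 CPM elsewhere. The phospholipase gene Pla2g1b and the elastase gene Cela3a had no count outside them. Pnliprp2 differed from the rest by 13.4 CPM in ExDSS 2, the highest of its other 6 values, beside 75.8 CPM in NC 2 and 230 in ExDSS 1. Counts here are not divided by transcript length, so no order of levels between genes is drawn from them.

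Of the accessory genes, 6 were matched by name. Clps, which encodes the colipase that anchors lipase to fat droplets, was at 1837 CPM in NC 2 and 4152 in ExDSS 1, and at 18.9 in NC 1, 42.6 in PC 1, 45.6 in PC 2, 27.3 in Ex 1, 5.16 in Ex 2 and 79.2 in ExDSS 2. Every library thus held Clps counts. Gp2, the main membrane glycoprotein of zymogen granules and also a receptor on M cells of the gut, was at 234 CPM in NC 2, 628 in ExDSS 1, 0.0877 in NC 1, 2.21 in PC 2 and 1.02 in Ex 1, with no count in PC 1, Ex 2 and ExDSS 2. The granule membrane protein gene Cuzd1 had counts only in NC 2 (60.5 CPM) and ExDSS 1 (115 CPM). Erp27, which encodes an endoplasmic reticulum protein of the disulfide isomerase family, was at 22.2 CPM in NC 2, 47.1 in ExDSS 1, 2.58 in Ex 2, 0.263 in NC 1 and 0.0960 in PC 2, with no count in the rest. The serpin gene Serpini2 was at 2.44 CPM in NC 2, 20.4 in ExDSS 1 and 0.113 in Ex 1 and had no count elsewhere. Of these 6 genes, 5 were higher in both NC 2 and ExDSS 1 than in each of the other 6 libraries.

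Syncollin, Sycn, a granule protein, was the exception. It was at 1833 CPM in NC 2 and 3541 in ExDSS 1, but also at 126 in NC 1, 883 in PC 1, 1542 in PC 2, 2328 in Ex 1 and 431 in ExDSS 2, with 5.16 in Ex 2. Ex 1 was therefore above NC 2, and the groups overlapped. Spink3, a trypsin inhibitor of the granule, differed more. The line Spink1, of which it is an alias, was at 2865 and 3987 CPM in NC, 1493 and 4150 in PC, 3653 and 24.1 in Ex, and 4513 and 22985 in ExDSS. Its highest value was in ExDSS 2 and not in ExDSS 1, and like Sycn and Cela1 it had its lowest level in Ex 2. The plots of single genes by library set these broad patterns beside the narrow one of Ins2.

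**Figure D2:**
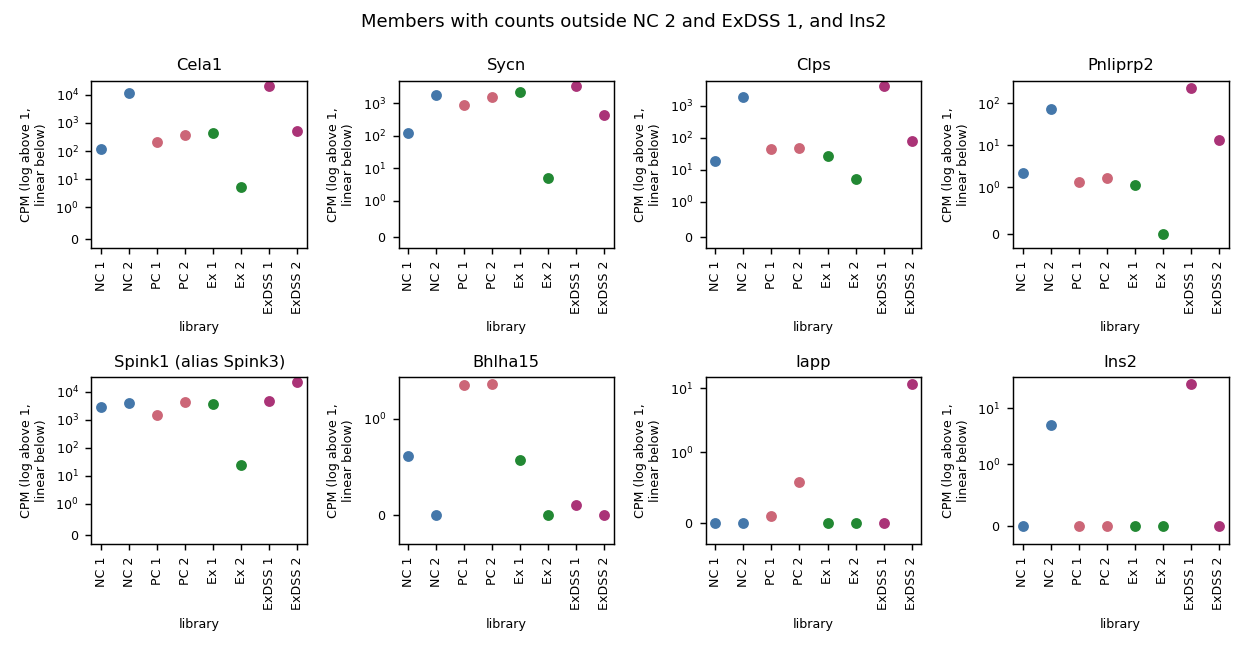
Each panel plots CPM in the 8 libraries, on an axis that is logarithmic above 1 and linear below, with one point per library coloured by group. Cela1, Clps and Pnliprp2 have low values outside NC 2 and ExDSS 1, Sycn and Spink1 are high in most libraries, Bhlha15 is highest in PC, Iapp is highest in ExDSS 2, and Ins2 has counts only in NC 2 and ExDSS 1.

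None of the 3 acinar regulators followed the enzymes. Ptf1a and Rbpjl, which encode the cell-type-specific parts of PTF1, had no count in any of the 8 libraries. Bhlha15 had 25 counts in PC 1 and 26 in PC 2 (2.46 and 2.50 CPM), 7 in NC 1 and 5 in Ex 1, 1 in ExDSS 1, and none in NC 2, Ex 2 and ExDSS 2. Its highest libraries were therefore both of PC, and it was at most at 1 count where the enzymes were highest. In NC 2, where enzymes had 1120498 counts, the regulators together had none, which on counting error alone allows up to 0.244 CPM for each. NC 2 also had fewer lines with a count than NC 1 (12683 against 16123), which this bound does not cover. ExDSS 1 had fewer still, 9825 lines, against 16787 in PC 1 and 16790 in PC 2. A lack of counts of a rare gene in NC 2 or ExDSS 1 is therefore not read as absence.

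The islet hormones split. Ins2, the ancestral insulin gene, had 63 counts in NC 2 (5.12 CPM) and 260 in ExDSS 1 (26.9 CPM), and none in the other 6 libraries. Ins1, the rodent retrogene of insulin, had 285 counts in ExDSS 1 (29.5 CPM) and none in the other 7, NC 2 included. Both insulin genes were thus high in ExDSS 1, and 1 of them had counts in NC 2. Iapp, the gene of amylin, had no count in NC 2 and ExDSS 1, 125 counts in ExDSS 2 (11.6 CPM), 1 in PC 1 and 6 in PC 2. In these counts Iapp was therefore separate from both insulin genes, though NC 2 and ExDSS 1 had fewer lines with a count than NC 1.

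Levels in ExDSS 1 exceeded those in NC 2 for every enzyme with a count. For the 21 enzymes counted in both, the ratio of ExDSS 1 to NC 2 had a median of 2.88 and ran from 1.80 (Cela1, exact 95% interval 1.79 to 1.81) to 12.4 (Prss3, 10.8 to 14.4). Amylase Amy2a5 was near the low end at 1.96 (1.95 to 1.97), the chymotrypsinogen Ctrb1 at 3.24 (3.22 to 3.27) and Try4 at 3.42 (3.38 to 3.47). These intervals do not overlap, so the ratio differed between enzymes by more than counting error. Over all 4894 genes with at least 100 counts in both libraries the median ratio was 0.871, with the 5th and 95th percentiles at 0.292 and 3.51.

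The accessory genes spanned a similar range of ratios, from 1.90 for Cuzd1 (1.73 to 2.09) and 1.93 for Sycn (1.90 to 1.97) to 8.37 for Serpini2 (5.68 to 12.7). Spink1 was nearer to 1, at 1.13 (1.12 to 1.15). Ins2 had a ratio of 5.26 (3.98 to 7.04). For genes with no count in NC 2, set against 3 counts there, Ins1 was at least 121-fold and Prss1 at least 71.4-fold higher in ExDSS 1 on counting error alone. These are not firm bounds, as NC 2 had 12683 and ExDSS 1 9825 lines with a count, against 16123 in NC 1. Prss1 also shares sequence with other trypsinogens, as described below. NC 2 and ExDSS 1 are 2 libraries of different groups, with no replicate of either level, so the ratios compare libraries and not treatments.

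**Figure D3:**
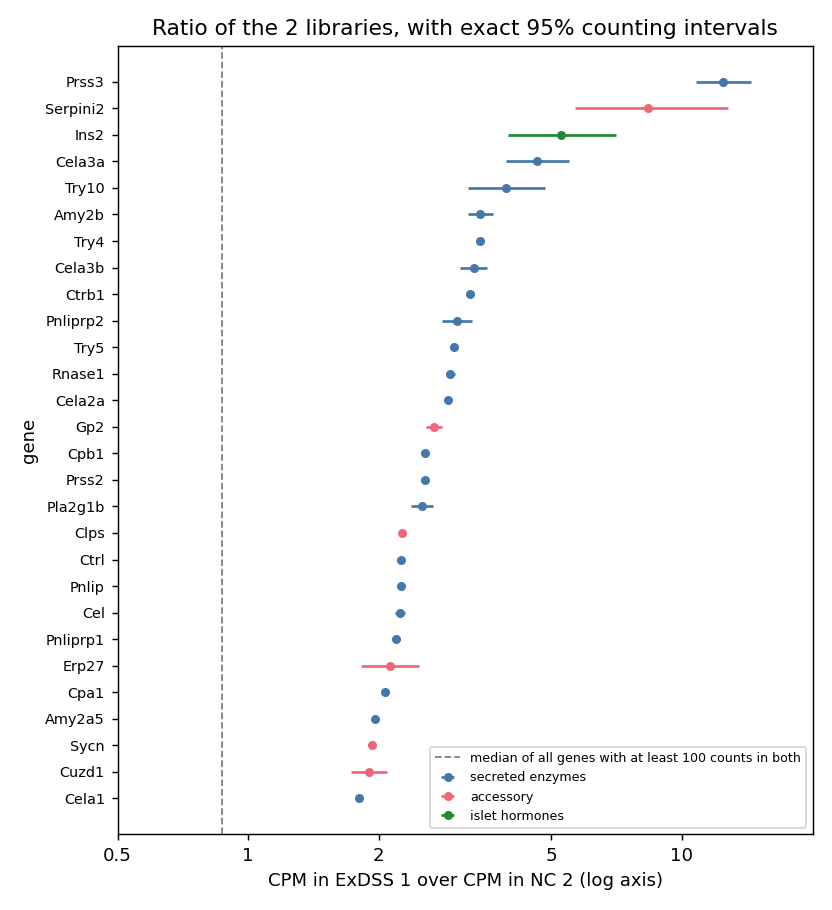
Points give CPM in ExDSS 1 divided by CPM in NC 2 on a log axis for members counted in both, coloured by role, with exact 95% counting intervals as bars. The dashed line is the median of all genes with at least 100 counts in both, 0.871; every point lies above it, from Cela1 at 1.80 to Prss3 at 12.4.

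Traces of the enzymes outside NC 2 and ExDSS 1 were compared in makeup with the 2 high libraries. Cela1, Pnliprp2 and Ctrc were left out, and the other 20 enzymes were ranked by their counts. NC 2 and ExDSS 1 ranked them almost alike (Spearman correlation 0.991 across genes, which are not independent replicates). PC 2, with 520 counts of these genes at 0.0628% of the NC 2 level, had a correlation of 0.891 with NC 2 and 0.894 with ExDSS 1. Ex 1, with 310 counts, had 0.800 and 0.810. The correlations were lower in the libraries with fewer counts: Ex 2 had 74 counts and 0.727 and 0.694, NC 1 had 75 counts and 0.622 and 0.613, PC 1 had 36 counts and 0.505 and 0.496, and ExDSS 2 had 17 counts and 0.410 and 0.451. The summed level of these genes in the low libraries ran from 1.57 CPM in ExDSS 2 to 63.6 CPM in Ex 2.

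Reads of some members cannot be told from those of neighbours or copies. The Amy2a5 line encloses the lines Amy2a2, Amy2a3 and Amy2a4, whose counts equal 5.45% of the total of NC 2 and 10.7% of that of ExDSS 1, so a read there can be counted more than once. Cela2a, on the minus strand, overlaps Casp9, a caspase gene on the plus strand, by 1016 bases. Casp9 was at 6481 CPM in NC 2 and 18799 in ExDSS 1, close to Cela2a there, and at 0 to 20.4 CPM in the other 6. Casp9 was singled out after its values were seen. No source used here says whether strand was used in counting, so reads of the overlapping genes cannot be told apart. In all, 11 member lines overlap another line.

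Near-identical copies were sought in the last 300 bases of the GENCODE M21 transcripts (GRCm38), where 3′ reads fall. Of 34 members searched, 11 share at least one 50-base word with another gene. In Prss3 such words made up 78.1% of all, in Prss1 62.5%, in Try10 59.4%, in Try4 44.6%, in Try5 34.7% and in Prss2 13.1%, all shared within the trypsinogen cluster. Values of single trypsinogens are uncertain for that reason, and Prss3, with the highest ratio, is the most shared of them. The 2 genes of the Cela3 pair share 37.5% and 29.5% of their words, and Ins2 shares 2.79% with Ins1. All words of Cela2a also lie in a transcript annotated to Ctrc. The other 23 members, among them Cela1, Ctrb1, Pnlip, Cpa1 and Cpb1, share none.

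Further acinar genes outside the members were divided. Of 22 such genes in the table, 12 were higher in NC 2 and ExDSS 1 than in all of the other 6 libraries, beside the 4.23% of all lines given above. These genes were listed with earlier results of these data known, so nothing is read from this count. The 3 with the most counts were Amy2a3, Amy2a4 and Zg16. Amy2a3 and Amy2a4, which lie inside the Amy2a5 line, were at 32724 and 10869 CPM in NC 2 and 64193 and 21472 CPM in ExDSS 1. Zg16, a lectin of zymogen granules that goblet cells also make, was at 8340 and 6370 CPM there, at 5996 in NC 1, 4691 in PC 1, 6091 in PC 2, 4166 in Ex 1, 31.0 in Ex 2 and 15340 in ExDSS 2. It did not separate NC 2 and ExDSS 1.

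Genes of the pancreatic duct did not separate them either. None of 10 was higher in both NC 2 and ExDSS 1 than in the other 6, and their summed level was 1909 and 1055 CPM in these libraries against 186 to 1481 in the rest. Krt19, a keratin of ducts and gut epithelium, was at 1784 and 913 CPM in them. The transcription factor gene Sox9 was at 17.3 and 15.4 CPM, and the chloride channel gene Cftr at 38.0 CPM in NC 2 with no count in ExDSS 1. Both had higher values in NC 1, PC and Ex 1, at 85.8 to 162 CPM for Sox9 and 51.5 to 109.5 CPM for Cftr. Sox9 was highest in Ex 2, at 169 CPM, where Cftr had no count. In ExDSS 2 they were at 34.0 and 0.740 CPM.

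Other islet genes also did not follow the enzymes, with 0 of 16 higher in both libraries and summed levels of 277 CPM in NC 2 and 386 in ExDSS 1 against 22.3 to 1464 in the other 6. The 3 with the most counts, the hormone genes Pyy and Gcg and the granin gene Chgb, are also made by enteroendocrine cells of the gut, and Pyy and Gcg were highest in ExDSS 2, at 583 and 308 CPM. ExDSS 2, the library with Iapp counts, was also the highest in Chgb, at 127 CPM. Of the beta cell genes Slc30a8, Nkx6-1 and Ucn3, no count was found in any library. Mafa and Pdx1 had none in NC 2 and ExDSS 1. Pcsk2 had none in ExDSS 1 but was highest in NC 2, at 3.25 CPM. The hormone genes Ppy and Sst, named after their values were seen, had counts in both. Ppy was at 4.875 CPM in NC 2 and 58.2 in ExDSS 1, and Sst at 109 and 129.5 CPM. Both were highest in ExDSS 2. ExDSS 1 had only 9825 lines with a count, so a lack of counts there is not read as absence.

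Genes that mark neighbouring organs were low or followed other libraries. Of the stomach genes, 1 of 11, the trefoil factor gene Tff2, was higher in both NC 2 (11.3 CPM) and ExDSS 1 (78.6 CPM) than elsewhere (at most 0.886 CPM), while Gkn3 and Tff1 had no count in either. Among 7 salivary genes 5 had no count at all, Smr2 among them, and Dcpp1 and Dcpp2 had 0.812 and 1.38 CPM in NC 2 alone. None of the 9 liver, 12 small intestinal, 8 adipose or 8 B cell genes was higher in both. Liver genes summed to 82.4 CPM in NC 2 and 131 in ExDSS 1 against 27.5 to 168 in the other 6, with Trf, the transferrin gene, at 70.1 and 105 CPM and Alb and Cyp2e1 at most at 31.1 CPM in any library. Small intestinal genes summed to 260 and 107 CPM against 6.88 to 1060, led by Fabp2, at 234 and 101 CPM, then Fabp6 and Rbp2, at most at 16.2 and 12.8 CPM.

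Fat and B cell genes did not set the 2 libraries apart. Adipose genes summed to 38.1 CPM in NC 2 and 137 CPM in ExDSS 1 against 1.72 to 2542 in the other 6, and Cfd, Retn and Car3, the adipokine genes adipsin and resistin and a carbonic anhydrase gene, reached 1781, 447 and 380 CPM in ExDSS 2 (Cfd and Retn) and Ex 1 (Car3). B cell genes summed to 42.5 and 12.2 CPM against 0 to 68.5, with the B cell receptor parts Cd79b and Cd79a at 18.2 and 18.7 CPM in NC 2 and the complement receptor Cr2 at 3.58. In ExDSS 1 Cd79b was at 0.414 CPM and the other two had no count, while Ms4a1, the CD20 gene, named after its value was seen, made up most of the sum there at 11.8 CPM. The part that other tissue in the samples has in these levels was not tested.

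**Figure D4:**
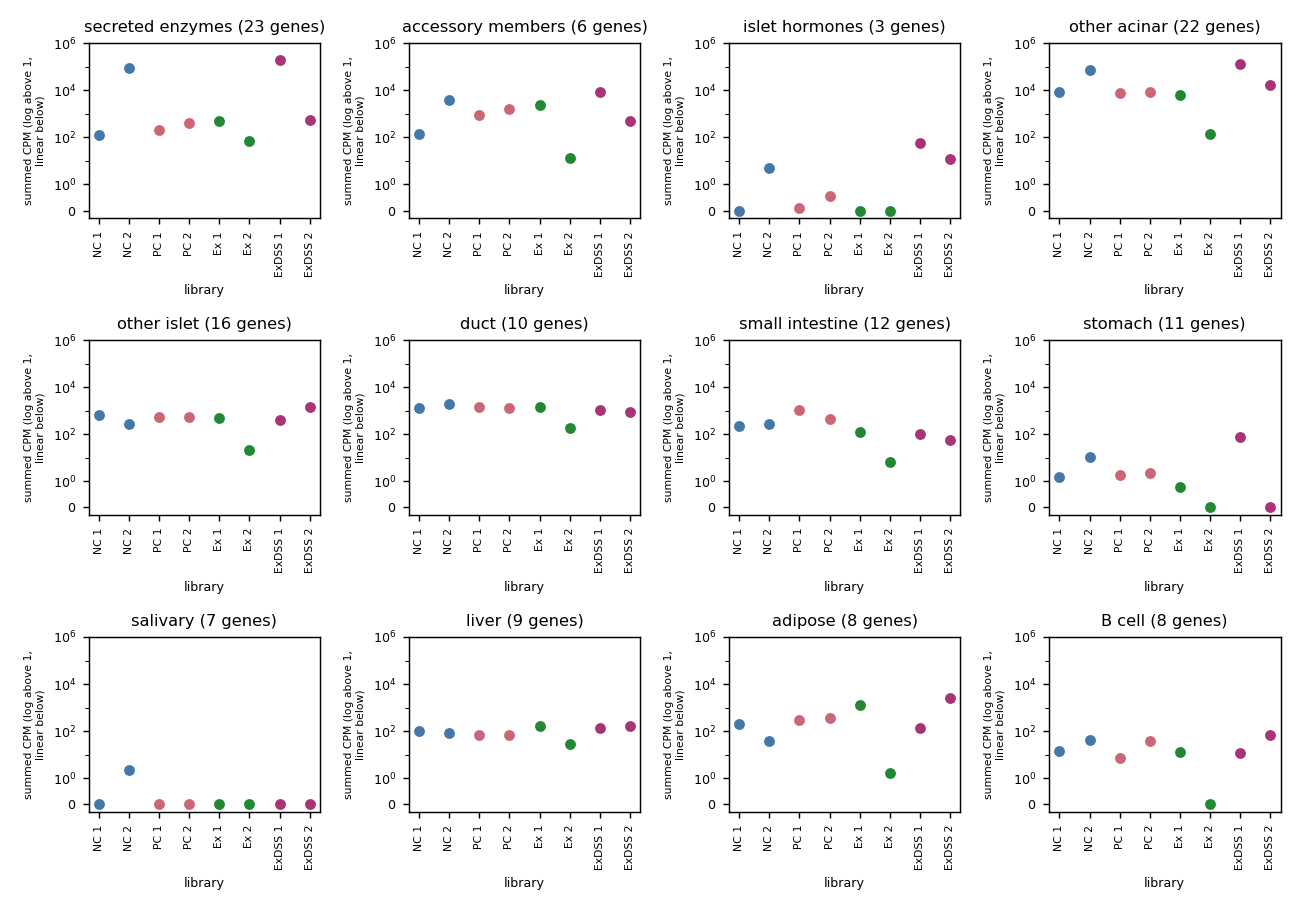
Each panel plots the summed CPM of a gene list in the 8 libraries on an axis that is logarithmic above 1 and linear below, with one point per library coloured by group. The secreted enzymes stand at 91034 CPM in NC 2 and 205299 CPM in ExDSS 1 and at no more than 552 CPM elsewhere; duct, other islet, small intestinal and liver lists show no such step.

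A mean of at least 5 CPM was reached by 10620 genes, members included. Outside the members, the 10 with the profile of log2(CPM + 0.5) over the 8 libraries most like the mean of the enzymes were taken. Their Pearson correlations with that mean were 0.984 to 0.998. Among them were Reg2, Reg1, 2210010C04Rik, Amy2a2, Amy2a4, Amy2a3, Pdia2, Reg3d and Adgrv1, and 8 of the 10 stand in the list of other acinar genes. That list was drawn up with earlier results of these data known. Amy2a2, Amy2a3 and Amy2a4 lie inside the Amy2a5 line, so their reads can also be counted in an enzyme of that mean. The correlations rest mainly on the high values in NC 2 and ExDSS 1, which all these genes share. The same libraries chose the members, so nothing is read from the likeness. Reg2, a secreted C-type lectin gene of the exocrine pancreas, was at 459 CPM in NC 2, 3209 CPM in ExDSS 1 and at most 1.15 CPM elsewhere, a ratio of 6.99 (6.80 to 7.19). Reg1, its neighbour on chromosome 6, had a ratio of 4.12 (4.04 to 4.20), while the protein disulfide isomerase gene Pdia2 was at 1.32 (1.22 to 1.44). Acinar genes outside the members thus also differed in ratio beyond counting error.

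The group comparisons of the 2 by 2 design were fitted across 14567 genes with edgeR's quasi-likelihood test, and 29 of the 35 members matched by name passed the filter on low counts. Ctrc, Prss1, Rbpjl, Ptf1a, Ins1 and Iapp did not. Pla2g1b, Cela3a, Prss3, Try10, Cuzd1 and Ins2 had no count outside NC 2 and ExDSS 1. They passed the filter only through the libraries that chose them, and they enter the counts of members below. The enzymes among them also enter the enzyme medians. Since NC 2 and ExDSS 1 each put 1 high library in a group, the values compared are part of what chose the members. No member was called by edgeR at an adjusted p under 0.05 in any of the comparisons. EdgeR called 0% of all genes in PC against NC, ExDSS against PC, Ex against NC and ExDSS against Ex, and 0.288% (42 genes) in the interaction of DSS and exosomes. All comparisons, the interaction included, take the DSS labels as given, though S100a8 went against those of NC and PC. DESeq2 called 9 members in PC against NC, beside 0.665% of all genes to which it gave an adjusted p, and 22 in ExDSS against PC, beside 10.3%. It called 7 in Ex against NC (2.58% of all genes), 12 in ExDSS against Ex (14.0%) and 24 in the interaction (11.5%). The smallest adjusted p of a member was 1 for PC against NC, 0.228 for ExDSS against PC, 0.93 for Ex against NC, 0.207 for ExDSS against Ex and 0.0537 for the interaction (edgeR, Benjamini-Hochberg over all genes).

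Fitted differences were large and poorly determined. For Amy2a5 the log2 fold change was -11.54 (SE 4.20) in PC against NC and 12.68 (SE 4.36) in ExDSS against PC, with adjusted p of 1 and 0.228. For Sycn, counted in all groups, these values were -0.23 (SE 1.83) and 1.41 (SE 1.87). Each SE was derived from the fold change and its F statistic and is not fitted by the model. The median over the 21 enzymes tested was -10.53 in PC against NC, 12.26 in ExDSS against PC, -9.15 in Ex against NC and 10.78 in ExDSS against Ex, beside 0.101, -0.506, -0.266 and -0.289 for all genes. The comparisons share groups, so these values are not independent of each other. For members with no count in a group the fitted size depends on the prior count and is no bound.

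At an unadjusted p under 0.05, 24 members were lower in PC than in NC (1.81% of all genes) and 27 were higher in ExDSS than in PC (2.84%). In Ex against NC 11 were lower (2.42%), in ExDSS against Ex 23 were higher (3.55%), and in the interaction 27 were higher (5.86%). No member passed that p in the opposite direction, where the shares of all genes were 0.686%, 16.1%, 2.89%, 16.2% and 13.0% in the same order. Nothing is read from these counts, as the same libraries chose the members. They also rest on single libraries and on the scaling. Without NC 2 the count was 0 in PC against NC and in Ex against NC and 7 in the interaction. Without ExDSS 1 it was 1 in ExDSS against PC, 1 in ExDSS against Ex and 2 in the interaction. Leaving out either Ex library gave 1 in PC against NC, 5 in ExDSS against PC, 0 or 1 in Ex against NC, 0 or 2 in ExDSS against Ex and 3 or 4 in the interaction. Without either PC library or either ExDSS library or NC 1, Ex against NC had 22 to 24. With RLE factors Ex against NC had 3 and ExDSS against Ex 8, and with upper-quartile factors they had 4 and 13; with total counts alone Ex against NC had 19. Leaving out single libraries also moved the medians. Without NC 2 the enzyme median was 1.10 in PC against NC and 2.76 in Ex against NC, and without ExDSS 1 it was -2.99 in ExDSS against PC and -6.17 in ExDSS against Ex. Each of these 4 medians thus changed sign without 1 library. Of the other lists, none had a gene called by edgeR in any comparison. At an unadjusted p under 0.05, 10 of the 21 other acinar genes tested were lower in PC than in NC, beside 1.81% of all genes. In ExDSS against PC 11 of them were higher, beside 2.84%. Of the 8 duct genes tested, 0 were lower in PC than in NC and 1 was higher in ExDSS than in PC. The acinar list was drawn up with earlier results of these data known. Its genes Amy2a2, Amy2a3 and Amy2a4 lie inside the Amy2a5 line. Nothing is read from the difference between the lists.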

How the data were processed

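RNA of mouse intestine was measured in 8 libraries (4 groups of 2) prepared with the QuantSeq 3′ kit, per the labels' protocols. Values in the deposited table are whole-number counts, 1 line per gene. The submitters' processing notes name Bowtie2, bedtools, edgeR and build mm9, with no roles or versions. Gene positions overlapped those of GENCODE M21 (GRCm38) for 22071 of 22139 genes matched by name and chromosome (99.69%). Lines with no count numbered 4764, and 27 carry a date in place of a name (0.135% of counts).

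CPM are counts per 1000000 counts of the library. Shares carry exact Clopper-Pearson 95% intervals and ratios exact binomial ones; a count of 0 allows 3 counts. Intervals cover counting error only. Comparisons used edgeR 4.0.16 in R 4.3.3 (TMM, filterByExpr with a minimum count of 10 and 15 in total, robust quasi-likelihood F test, 1 coefficient per group, 4 residual degrees of freedom, Benjamini-Hochberg over all genes), after tests on simulated data. Alternatives were DESeq2 1.42.0, 4 other scalings, no filter, a replicate block, each library left out, and 2 settings chosen after seeing the data. CPM in every library is given for the 10 enzymes with the most counts and for every accessory, regulator and hormone member; other enzymes are given by their range, and of each further list the 3 genes with the highest mean are named. In all, 1 gene with a profile like the enzymes is not reported here. Members and lists were chosen with earlier results of these data known.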

Additional observations from a re-analysis of the deposited data

How the results depend on the processing

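Members called at an adjusted p under 0.05 and all genes called depended on the test. The same libraries chose the members, so nothing is read from the members' part of the genes called. Without a filter on low counts edgeR tested 18518 genes, 32 of them members. It called 19 members of 45 genes in PC against NC, 21 of 132 in ExDSS against PC and 14 of 55 in Ex against NC. In ExDSS against Ex it called 21 of 223 and in the interaction 26 of 350. DESeq2 called 9 of 85, 22 of 1496, 7 of 329, 12 of 2036 and 24 of 1630 in the same order. With RLE factors the interaction had 1 member of 67 genes, and with total counts alone 6 genes. Deviations of same-numbered libraries correlated across genes at -0.15 to 0.05 between groups. No strong shared effect of the replicate number was seen, but such a correlation cannot exclude a pairing of the samples. With the replicate block edgeR tested 14567 genes, 29 of them members. It called 12 members of 41 genes in ExDSS against PC, 5 of 28 in ExDSS against Ex and 24 of 161 in the interaction. The enzyme medians were then 14.46 in ExDSS against PC and -7.91 in Ex against NC. Leaving out each library in turn, all genes called ran from 0 to 4 in PC against NC, 0 to 6 in ExDSS against PC, 0 to 1596 in Ex against NC, 0 to 1883 in ExDSS against Ex and 0 to 1663 in the interaction; members called ran from 0 to 1 in ExDSS against Ex and 0 to 16 in the interaction (16 without PC 2), and were 0 in the rest. The highest counts of all genes called in Ex against NC, ExDSS against Ex and the interaction were reached without Ex 1, which leaves Ex 2 as the only Ex library. Enzyme medians ran from -13.06 to 1.10 in PC against NC, -2.99 to 14.62 in ExDSS against PC, -10.19 to 2.76 in Ex against NC, -6.17 to 11.77 in ExDSS against Ex and 4.38 to 24.09 in the interaction. The causes were not tested. The enzyme share of counts with Rn45s taken out of the total was 9.14% in NC 2, 0.0224% in PC 1, 0.0471% in PC 2, 0.0561% in Ex 1, 0.0148% in Ex 2 and 20.7% in ExDSS 1. Without Amy2a5 it was 4.73% in NC 2, 0.04% in PC 2, 0.00481% in Ex 2 and 12% in ExDSS 1, and with Amy2a2, Amy2a3 and Amy2a4 out of the total 9.63% in NC 2 and 23% in ExDSS 1. Under other pseudocounts and a lower filter 8 or 9 of the 10 most alike genes were shared. The depth of Ex 2 limits its values to about 2.58 CPM.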
